A study of Mus musculus with 3 samples.

Results

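The genes described here are the 27 listed members of the sterol pathway, out of 25638 gene names in the deposited count table, and all 27 had a row. They were taken by name, with no threshold on their values, but were chosen with earlier results of these data known. The members are 18 synthesis enzymes (Acat2, Hmgcs1, Mvk, Pmvk, Mvd, Idi1 and Fdps of the mevalonate part, then Fdft1, Sqle, Lss, Cyp51, Tm7sf2, Msmo1, Nsdhl, Hsd17b7, Ebp, Sc5d and Dhcr7 of the sterol part), 5 regulators (Srebf1, Srebf2, Insig1, Insig2 and Scap), the sterol carrier Stard4, the branch enzyme Ggps1, and the efflux transporters Abca1 and Abcg1. The samples were CD8+ T cells of mouse spleen, genotype WT and untreated, in 3 groups: naive, central memory and effector memory. Each group was 1 library, so no difference has a replicate check and no p-value is given. The sources used here do not give the sorting markers, the age or the number of mice.

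Cells build cholesterol from acetyl-CoA by way of mevalonate, the isoprenoid farnesyl diphosphate and then lanosterol. The transcription factor SREBP2, encoded by Srebf2, switches on most of these enzymes when sterol in the endoplasmic reticulum is low: SCAP then carries it to the Golgi for cleavage, and the INSIG proteins hold SCAP back when sterol is plentiful. Excess sterol has the opposite arm, in which oxysterols activate the nuclear receptor LXR and with it the exporters ABCA1 and ABCG1. T cells that divide after antigen contact need membrane sterol and are known to use SREBP for it.

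The libraries held 26876909 counts (naive), 35846315 (central memory) and 33087462 (effector memory). Levels are normalised CPM, and 3 values in a row stand in the order naive, central memory, effector memory. Each interval is a 95% counting interval, which covers counting error only. Among genes with 1 to 20 counts, 65.3% to 67.4% of the counts were even numbers, against 49.5% to 49.9% above 100 counts, as when the mates of a read pair are counted apart. Intervals from single counts are then too narrow, so the calls were repeated with each pair counted once, and 0 of 27 members had another call in any comparison. The 8 T cell markers each stood at 200.1 CPM or more in every library. Their sum was 5785, 4509 and 3017 CPM, with Cd8a at 1868, 1063 and 408 CPM and Cd8b1 at 1055, 540 and 276 CPM. Cd3g went the other way, at 447, 570 and 572 CPM, and Cd3d and Cd3e were highest in central memory. Cd44, an antigen-experience marker, was at 2.95, 45.8 and 113 CPM. The libraries also differed in receptor use, with Trbv12-1 at 7.13%, 99.6% and 98.4% of Trbv counts, and in cell cycle genes. Mki67, the proliferation marker, was at 2.62, 301 and 1819 CPM and Top2a, the replication-linked topoisomerase, at 9.70, 274 and 1331 CPM, the same order of libraries as most synthesis enzymes below. The labels name no selection for 1 receptor and no stimulus, so the memory libraries stand apart from naive in ways their labels do not give. Subset, receptor use and cell division cannot be told apart in the comparisons with naive. Mki67 was also 6.04-fold higher in effector memory than in central memory, so subset and cell division cannot be told apart there either. The part of cell division in the sterol gene differences was not tested.

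The first question was how the pathway stood in each library. A gene was called when the larger of its CPM values was 5 or more, the libraries differed 2-fold or more, and the counting interval of the ratio excluded 1. With 1 library a group this is a rule of size and no test. In effector memory against naive, 17 of 18 synthesis enzymes were called higher and none lower, whereas 22.3% of the 10087 genes measured at 5 CPM were called higher and 15.6% lower. In effector memory against central memory, 15 of 18 enzymes were called higher and none lower, beside 14.8% higher and 12.8% lower of 9975 genes. In central memory against naive, only Acat2, Sqle and Cyp51 were called higher, 3 of the 17 enzymes at 5 CPM, beside 11.2% of 9737 genes, with 5.12% lower. The share for central memory is therefore near that of all genes, and Acat2 and Cyp51 lost the call under each other scaling tried. Over all 27 members, 21 were higher and 2 lower in effector memory against naive, 18 and 0 in effector memory against central memory, and 4 and 2 in central memory against naive, or 2 and 2 there under each other scaling.

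**Figure D1:**
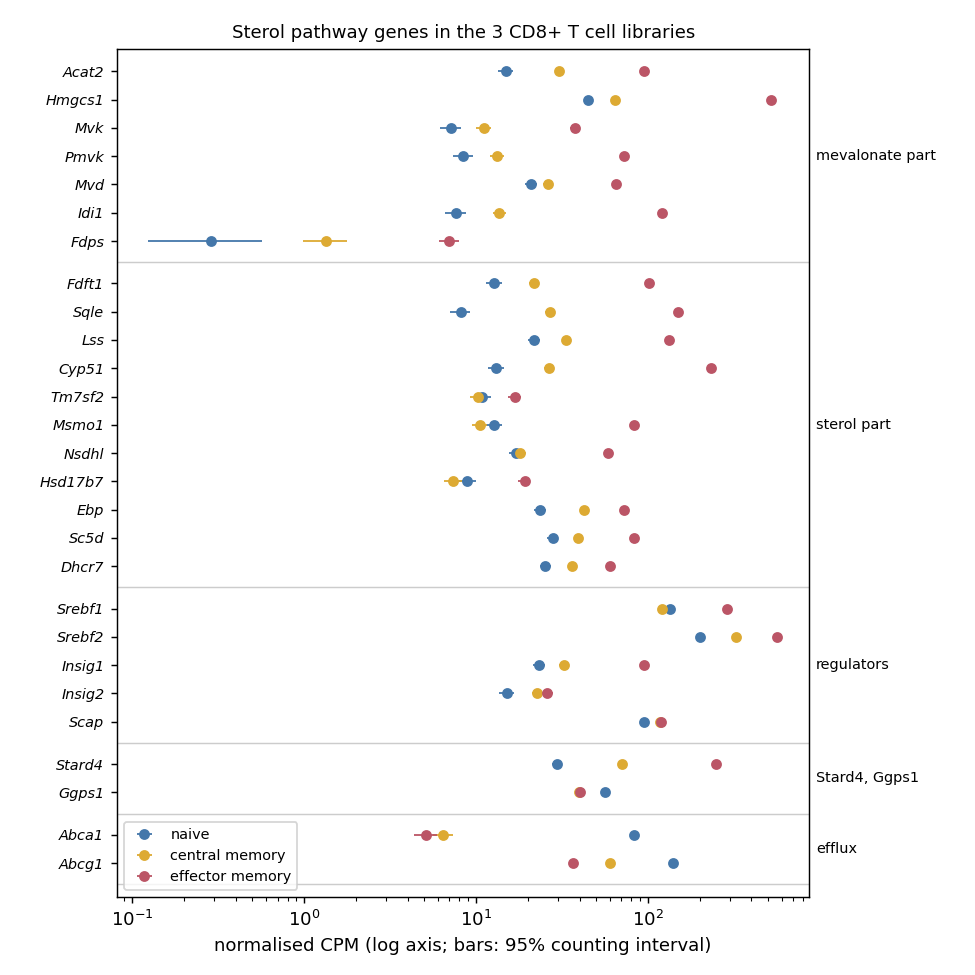
Normalised CPM (log axis) of the 27 genes in the naive, central memory and effector memory libraries, 1 point per library with its 95% counting interval, grouped by role. Effector memory is the highest library for all 18 synthesis enzymes, and naive is the highest for Ggps1, Abca1 and Abcg1.

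All 7 enzymes of the mevalonate part were lowest in naive, intermediate in central memory and highest in effector memory. Hmgcs1, the cytosolic synthase that makes HMG-CoA (chromosome 13, 119690379 to 119708260, ENSMUSG00000093930.2), was at 44.7, 64.4 and 521 CPM in naive, central memory and effector memory. Its step between the memory libraries was 8.09-fold (interval 7.75 to 8.46), while central memory stood 1.44-fold above naive (interval 1.34 to 1.54). Idi1, the isomerase of the isoprenoid units (chromosome 13, 8885501 to 8892451), had a like course at 7.62, 13.7 and 121 CPM, 15.9-fold from naive to effector memory (interval 13.8 to 18.3). Acat2, the cytosolic thiolase at the entry of the pathway, was at 14.8, 30.5 and 95.4 CPM. Its difference was spread more evenly over the libraries, 2.05-fold in central memory against naive (interval 1.83 to 2.31) and 3.13-fold in effector memory against central memory (interval 2.92 to 3.36).

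The 3 enzymes that turn mevalonate into isopentenyl diphosphate differed by unequal amounts. Mvk, mevalonate kinase, was at 7.15, 11.1 and 37.4 CPM, and Pmvk, the phosphomevalonate kinase, at 8.41, 13.3 and 72.5 CPM. Mvd, the decarboxylase that follows them, was at 20.95, 26.045 and 65.3 CPM. From naive to effector memory these are 5.23-fold (interval 4.50 to 6.11), 8.62-fold (interval 7.53 to 9.90) and 3.12-fold (interval 2.84 to 3.42), and the intervals do not overlap. Fdps, farnesyl diphosphate synthase, had few counts: 8, 48 and 223, or 0.288, 1.34 and 6.97 CPM. It was 24.3-fold higher in effector memory than in naive, with a wide interval of 12.1 to 56.9 (9.25 to 90.97 with read pairs counted once), and was below 5 CPM in naive and central memory. In GENCODE M21, 26.7% of Fdps exon bases are shared with Gm43738, a gene on the same strand, so reads there may have been left out of the Fdps count.

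The sterol part of the pathway split into steps with large and small differences. Sqle, squalene epoxidase and a rate-limiting step (chromosome 15, 59315077 to 59331192, ENSMUSG00000022351.14), was at 8.12, 26.882 and 150.5 CPM. It was the called enzyme with the largest difference between central memory and naive, 3.31-fold (interval 2.86 to 3.84). Cyp51, the lanosterol demethylase (chromosome 5, 4081145 to 4104746, ENSMUSG00000001467.5), was at 13.1, 26.5 and 232 CPM, 17.7-fold from naive to effector memory (interval 15.9 to 19.7). Fdft1, squalene synthase, was at 12.7, 21.8 and 101.5 CPM. Lss, lanosterol synthase, was at 21.8, 33.5 and 132 CPM. Both were called higher in effector memory against each other library and in neither direction between central memory and naive.

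The enzymes after lanosterol demethylation were more uneven. Msmo1, the C4-methyl oxidase, was at 12.7, 10.5 and 83.1 CPM. Central memory was 0.827-fold of naive (interval 0.714 to 0.959, and 0.672 to 1.02 with read pairs counted once, which includes 1). The gene was 7.92-fold higher in effector memory than in central memory (interval 7.10 to 8.84). Nsdhl, the C4 decarboxylase of the same demethylation complex, was at 16.999, 17.9 and 58.5 CPM, and Hsd17b7, its 3-ketosteroid reductase, at 8.80, 7.34 and 19.1 CPM. Both memory libraries of Tm7sf2, a sterol C14 reductase, stayed within 2-fold of naive: it was at 10.9, 10.2 and 16.8 CPM, and was the enzyme not called in effector memory against naive (1.55-fold, interval 1.34 to 1.79). Ebp, the sterol isomerase, was at 23.5, 42.4 and 72.4 CPM. Sc5d, the C5 desaturase, was at 27.9, 39.1 and 82.7 CPM, and Dhcr7, the last enzyme listed, at 25.2, 36.2 and 60.0 CPM. Ebp, Dhcr7 and Tm7sf2 were the 3 enzymes not called between the memory libraries.

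Set in pathway order, the differences were larger before Cyp51 and at it than after it, a division made after the values were seen and given as a description. The 11 enzymes up to and including Cyp51 were 3.12-fold to 24.3-fold higher in effector memory than in naive, with a median log2 ratio of 3.11. The 7 after it were 1.55-fold to 6.55-fold higher, with a median of 1.57. In central memory against naive the medians were 0.78 and 0.08 on the same log2 scale. The 11 include Fdps, which is under 5 CPM in that comparison, so the medians are not set against that of all genes. The ranges overlap, since Msmo1, after Cyp51, differed more than Mvd, Mvk, Lss and Acat2 before it.

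**Figure D2:**
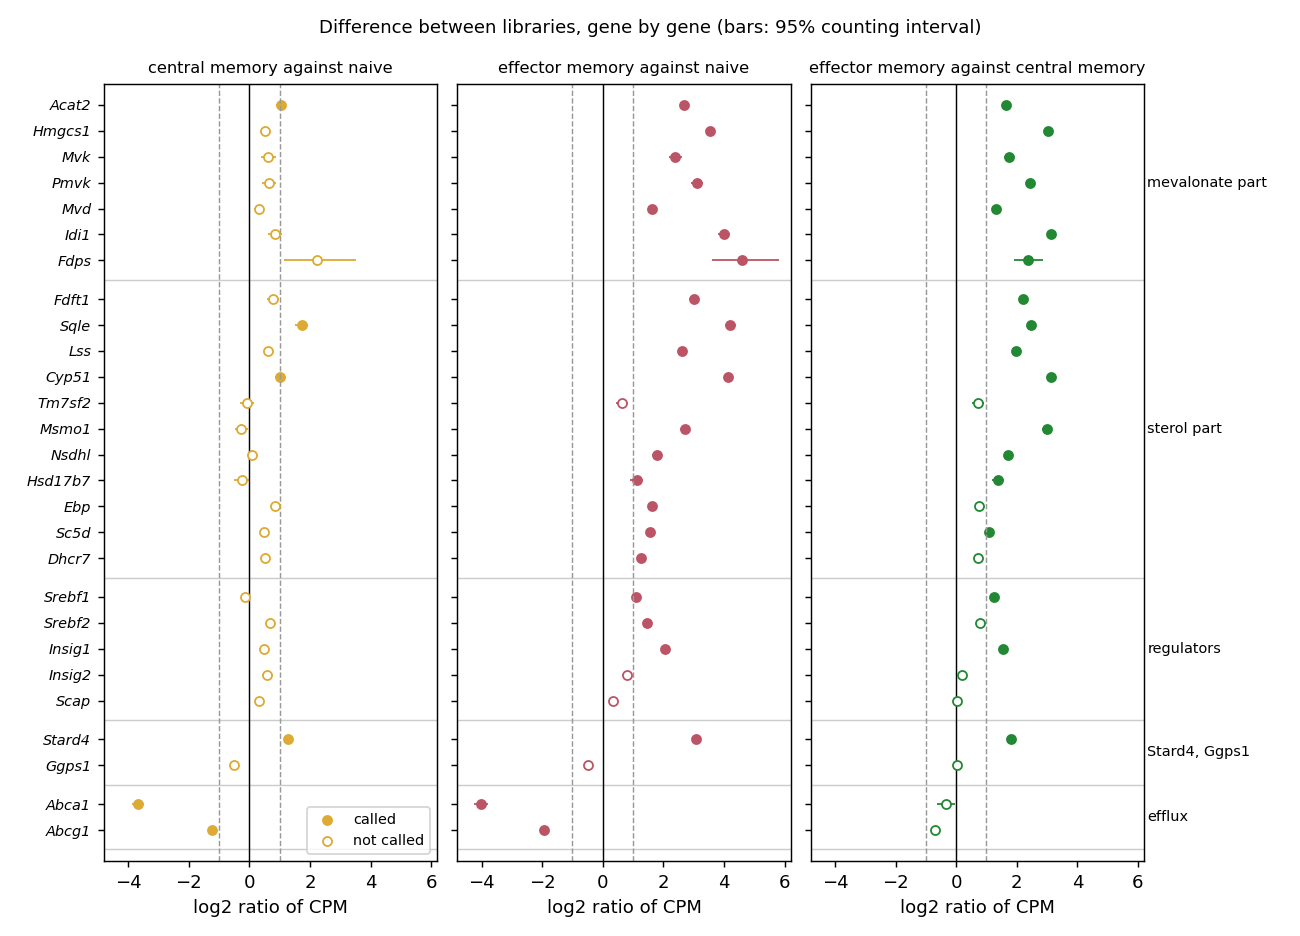
Log2 ratio of CPM for each gene in the 3 comparisons, with 95% counting intervals; filled points are called, open points are not, and dashed lines mark 2-fold. Synthesis enzymes lie right of 0 in effector memory against naive and against central memory, and Abca1 and Abcg1 lie left of 0 in all 3 panels.

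Among the regulators, the genes for the transcription factors and INSIG1 were called higher in effector memory against naive, and Insig2 and Scap were not. Srebf2, which encodes SREBP2 (chromosome 15, 82147181 to 82205379, ENSMUSG00000022463.8), was at 202, 324 and 561 CPM in naive, central memory and effector memory. Its ratio was 2.78 in effector memory against naive (interval 2.70 to 2.87), 1.61 in central memory against naive (interval 1.56 to 1.66) and 1.73 between the memory libraries (interval 1.69 to 1.77). Srebf1, which encodes the SREBP1 isoforms better known for fatty acid genes, was at 134, 121 and 289 CPM. It did not follow Srebf2 in central memory, where it was 0.907-fold of naive (interval 0.868 to 0.948), and was 2.38-fold higher in effector memory than in central memory (interval 2.29 to 2.47). The counts are per gene and do not separate the SREBP1 isoforms.

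The INSIG genes differed from each other. Insig1, the retention factor that is itself an SREBP target, was at 23.2, 32.4 and 95.4 CPM, 4.11-fold higher in effector memory than in naive (interval 3.78 to 4.49). Insig2, its paralog that is regulated in other ways, was at 15.1, 22.8 and 26.02 CPM, 1.73-fold (interval 1.53 to 1.95). On a length-scaled level (counts per kilobase of exon, scaled to one fixed total per library), Insig1 stood above Insig2 by 1.73-fold, 1.60-fold and 4.12-fold in the 3 libraries. Scap, the escort protein of SREBP, varied least of the regulators, at 94.8, 117 and 119.8 CPM. Its ratio between the memory libraries was 1.03 (interval 0.981 to 1.07).

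Stard4, a carrier of sterol between membranes and itself an SREBP2 target, was at 29.5, 70.9 and 248 CPM. It was called higher in all 3 comparisons, 8.39-fold in effector memory against naive (interval 7.81 to 9.02), 2.40-fold in central memory against naive (interval 2.22 to 2.60) and 3.50-fold between the memory libraries (interval 3.34 to 3.66). Ggps1, which takes farnesyl diphosphate into geranylgeranyl diphosphate for protein prenylation, went the other way without passing 2-fold. Its levels were 56.3, 39.5 and 40.1 CPM, 1.42-fold lower (interval 1.33 to 1.53) and 1.40-fold lower (interval 1.30 to 1.51) than naive in the memory libraries.

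Both efflux genes were highest in naive. Abca1, the exporter of cholesterol and phospholipid to lipid-poor apolipoprotein (chromosome 4, 53030787 to 53159895, ENSMUSG00000015243.4), was at 83.1, 6.45 and 5.10 CPM. This is 12.9-fold lower in central memory (interval 11.3 to 14.8) and 16.3-fold lower in effector memory (interval 13.9 to 19.2). Abcg1, which exports sterol to mature lipoprotein particles (chromosome 17, 31057675 to 31117988, ENSMUSG00000024030.7), was at 139.5, 59.8 and 36.7 CPM, 2.33-fold lower (interval 2.21 to 2.46) and 3.80-fold lower (interval 3.56 to 4.06). Between the memory libraries neither was called, with ratios of 0.790 for Abca1 (interval 0.643 to 0.970, and 0.589 to 1.06 with read pairs counted once) and 0.613 for Abcg1 (interval 0.571 to 0.659).

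Abca1 and Abcg1 are also abundant in macrophages, and bulk counts cannot tell fewer cells of a type from less RNA per cell. The 10 macrophage markers summed to 8.77, 8.04 and 25.3 CPM, with Adgre1 at 0 counts in all 3 libraries and Csf1r at 6, 2 and 0. Cd68, at 3.38, 4.05 and 21.1 CPM, and Cd14, at 2, 4 and 97 counts, were highest in effector memory and made up most of its sum. Lyz2, at 70, 2 and 0 counts, and Cd163, at 20, 0 and 0, were highest in naive, as the efflux genes were. So were Csf1r, Marco, Vcam1 and C1qa, each with at most 6 counts, while Itgam was highest in central memory. Of the 10, 1, 5 and 7 were at 0 in the 3 libraries. Their part in the efflux difference was not tested. The 6 B cell markers summed to 31.2, 6.17 and 2.81 CPM, with Cd79b at 14.6, 2.76 and 2.19 CPM. They were thus highest in naive, as the efflux genes were, and their part in it was not tested either. The 5 dendritic cell markers summed to 3.02, 2.23 and 12.5 CPM, of which Xcr1 alone had 2.01, 1.56 and 12.3 CPM. The 6 NK cell markers summed to 39.0, 134 and 93.1 CPM, of which Eomes had 38.1, 74.4 and 79.9 CPM. Ncr1, at 0, 437 and 0 counts, and Klrb1c, at 6, 1181 and 61, were highest in central memory, as were Klrb1b and Tyrobp. Fcer1g, at 8, 285 and 333 counts, and Eomes were highest in effector memory. The erythroid and platelet lists summed to at most 3.92 CPM in any library. Of the 3 CD4 T cell markers, Zbtb7b was at 1.33, 37.4 and 93.6 CPM, while Cd4 was at 2.12, 0.251 and 0.281 and Foxp3 at 3.95, 1.70 and 0.156 CPM, both highest in naive.

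Summed over the 18 enzymes, the synthesis transcripts took 286 CPM (interval 279 to 292), 433 CPM (interval 426 to 439) and 1928 CPM (interval 1913 to 1944) of the 3 libraries. The sum was 6.75-fold higher in effector memory than in naive and 1.51-fold higher in central memory. The regulators summed to 469, 617 and 1091 CPM, 2.33-fold from naive to effector memory. The efflux pair went the opposite way, from 223 CPM in naive to 66.3 and 41.8. The median log2 ratio over the 18 enzymes was 2.64 in effector memory against naive and 1.87 between the memory libraries, beside 0.06 and -0.06 over all genes at 5 CPM. In central memory against naive it was 0.62 over the 17 enzymes at 5 CPM, beside 0.14 over all genes. The comparisons share libraries, so these medians are not independent of each other.

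**Figure D3:**
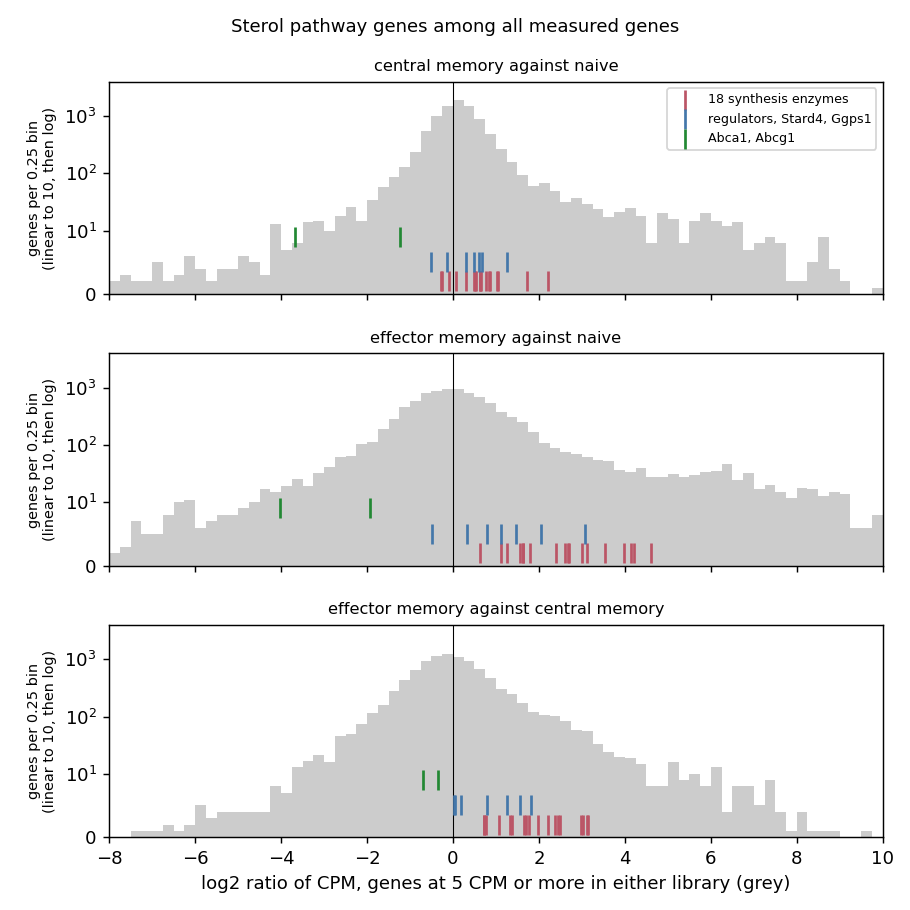
Log2 ratio of CPM of all genes that reached 5 CPM in the comparison (grey bars, number per bin, linear to 10 and then log) with the sterol pathway genes as ticks. In effector memory against naive the enzymes lie between 0.63 and 4.60, inside the upper flank of the grey distribution, while Abca1 and Abcg1 lie at -4.03 and -1.93.

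Other genes differed more than the pathway did. In effector memory against naive, Sqle ranked 557 and Hmgcs1 666 from the top of 10087 genes, Tm7sf2 ranked 3114, and Abca1 was lower than all but the lowest 1.52% of genes. The members closest to the 2-fold limit in that comparison were Srebf1 (2.16) and Hsd17b7 (2.17) inside it and Insig2 (1.73) and Tm7sf2 (1.55) outside it.

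Levels of different genes were compared per length. In naive the highest length-scaled levels of the 27 belonged to Srebf2 (109.6), Srebf1 (92.7) and Abcg1 (74.6), and in central memory to Srebf2 (164), Srebf1 (78.3) and Ebp (66.7). In effector memory they belonged to Hmgcs1 (360), Srebf2 (248) and Cyp51 (167). Abca1 went from place 9 of 27 in naive to place 26 in central memory and place 27 in effector memory on this scale. Cyp51 took places 19, 17 and 3 in the same order. Exon lengths are those of all annotated transcripts of a gene together, so a level is understated where few of them are used.

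Further genes of sterol handling came from lists of neighbouring functions. Their counts stand beside the shares over all genes given above, which in effector memory against naive are 22.3% higher and 15.6% lower. None of the 8 genes of SREBP cleavage and INSIG turnover was called in any comparison. Mbtps1, the first protease that cuts SREBP, was at 208, 185 and 133 CPM in the same order of libraries, and Mbtps2, the second, at 26.99, 31.2 and 27.5 CPM. The nuclear receptor gene Nr1h2, which encodes LXR beta, had 131, 160.0 and 154 CPM, and Nr1h3, for LXR alpha, had 2.62, 1.93 and 1.38 CPM. Of the 8 LXR and oxysterol genes at 5 CPM, 1 was higher and 2 lower in effector memory against naive, beside 22.3% and 15.6% of all genes, which is no result about the list. Rxra, a partner of LXR, had 16.4, 10.7 and 1.13 CPM, which is 14.6-fold lower there (interval 10.4 to 21.1). Smpdl3a, an LXR target, was 2.74-fold lower, and Lpcat3, a phospholipid remodelling enzyme that LXR also induces, was 2.63-fold higher (interval 2.45 to 2.82). Ch25h, Cyp7b1 and Hsd3b7, enzymes that make or break down oxysterols, had 0 counts in every library, which allows up to 0.108 CPM in naive (3 counts).

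Uptake genes went both ways. Of 7 at 5 CPM, 3 were higher and 3 lower in effector memory against naive, beside 22.3% and 15.6% of all genes. Vldlr, a lipoprotein receptor, had 4 counts in naive and 0 in central memory and stood at 10.98 CPM in effector memory, 76.3-fold above naive (interval 29.6 to 282). Lrp8, another receptor of this family, was at 8.01, 13.1 and 55.7 CPM in naive, central memory and effector memory, 4.24-fold between the memory libraries (interval 3.83 to 4.71). Mylip, the LXR-induced ligase that degrades lipoprotein receptors, was 6.74-fold lower in effector memory than in naive (interval 6.06 to 7.51).

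Of 5 storage genes, 1 was higher in central memory and 2 in effector memory against naive, beside 11.2% and 22.3% of all genes. Soat2, which esterifies cholesterol and is not the thiolase Acat2 of the list, had 0.359, 30.9 and 36.5 CPM. It was 86.1-fold higher in central memory than in naive (interval 46.6 to 179.98). Plin2, a coat protein of lipid droplets, had 7.73, 8.85 and 56.4 CPM, 7.30-fold from naive to effector memory (interval 6.33 to 8.45). Of 12 sterol transfer genes at 5 CPM, 2 were higher and 1 lower in effector memory against naive, beside 22.3% and 15.6% of all genes. Osbpl3 had 4 counts in naive, and stood at 180 CPM in central memory and 207 CPM in effector memory. Osbpl5, of the same family, was 2.17-fold higher in effector memory than in naive. Gramd1a, a carrier of plasma membrane cholesterol, was 2.46-fold lower there. Gramd1b, of the same carrier family, was 2.04-fold higher in central memory than in naive (interval 1.96 to 2.12). Osbpl3 and Gramd1b were the 2 of 11 called higher in central memory against naive, beside 11.2% of all genes. None of the 12 was called between the memory libraries.

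Of 15 genes of protein prenylation, dolichol and ubiquinone synthesis, none was higher and 2 were lower in effector memory against naive, Rabggta (2.92-fold) and Fntb (2.25-fold), both subunits of prenyl transferases, beside 22.3% and 15.6% of all genes. The list's median log2 ratio was -0.11. Between the memory libraries Pdss1, of ubiquinone side chain synthesis, was 2.15-fold higher (interval 1.79 to 2.60) and Rabggta 2.21-fold lower. The fatty acid synthesis and desaturation genes had 7 of 11 higher and none lower in effector memory against naive, beside 22.3% and 15.6% of all genes, with a median log2 ratio of 1.25. Scd2, a stearoyl-CoA desaturase, had 178, 119 and 2005.5 CPM, and Scd1, another, at 4.24, 0.475 and 347 CPM. Fads2, a fatty acid desaturase, had no count in naive. Its effector memory level was 1367-fold that of 3 counts in naive, and the lower interval bound of its ratio was 1112.

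**Figure D4:**
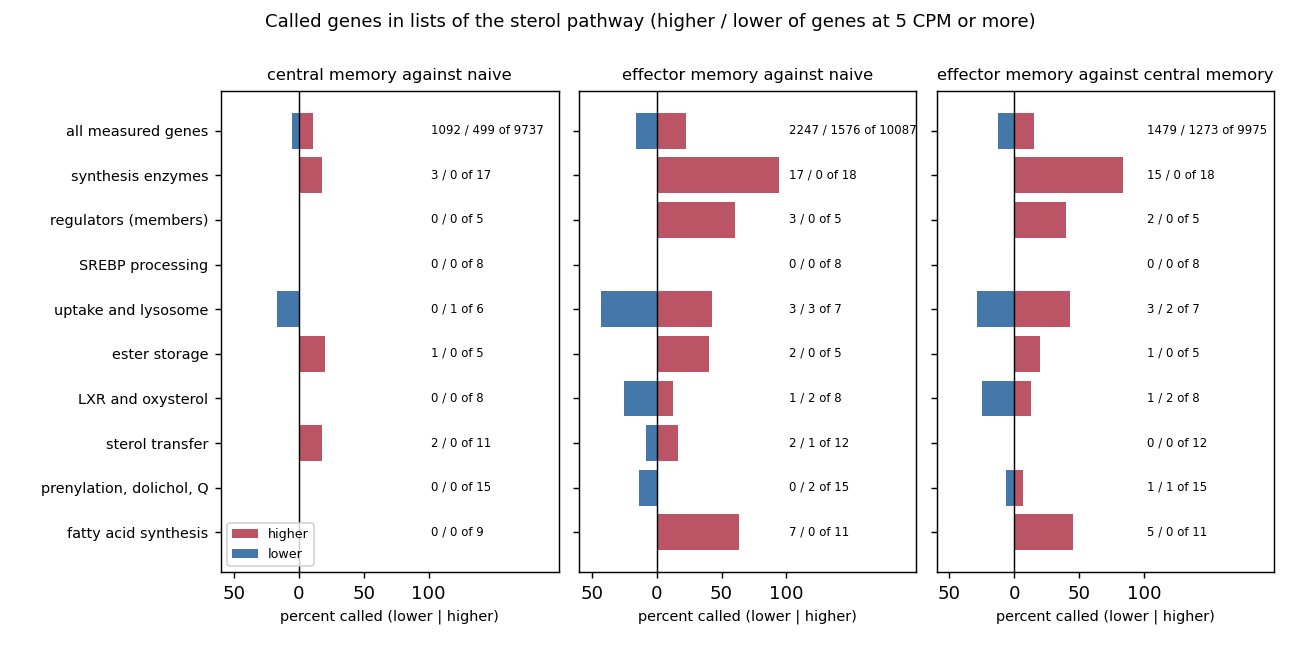
Percent of genes at 5 CPM or more that were called higher (right) or lower (left) in each comparison, for all measured genes, the synthesis enzymes, the regulators and 7 further lists, with the counts beside each bar. The synthesis enzymes have 17 of 18 higher in effector memory against naive and the SREBP processing genes 0 of 8.

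Upstream sequences of the members were examined for motifs of sterol regulation, since most enzymes were higher together in effector memory. RefSeq (GRCm38.p6) held 30 start sites for 22 of the 27 members, and the 250 bases before each were searched on both strands. No sequence was used for Fdps, Fdft1, Sqle, Stard4 and Abcg1. The SREBP element was searched as TCACNCCAC with no mismatch allowed, so sites that differ from these letters were not counted. The E-box, which basic helix-loop-helix factors including SREBP1 can bind, was searched as CACGTG. The CCAAT box of NF-Y, a partner of SREBP at sterol genes, was searched by the letters of its name. The GC box of SP1, another common partner, was searched as GGGCGG. Among the windows of synthesis enzymes, the box of NF-Y, CCAAT, was present in 14 of 18 (77.8%), against 35.7% of the 10247 windows of genes at 5 CPM in any library and 33.8% of all 32851 windows. The GC box was in 15 of 18 (83.3%), against 58.8% and 32.7%. Windows of the other members had a CCAAT box in 6 of 12 and a GC box in 8 of 12. The exact SREBP element was in 1 of 18 enzyme windows, that of Hmgcs1, against 0.995% of windows of genes at 5 CPM and 1.05% of all windows. The E-box was in 3 of 18 enzyme windows and 3 of 12 others, among them Insig1 and Abca1. It was in 8.66% of windows of genes at 5 CPM and 6.02% of all windows. The 18 enzyme windows came from 15 genes and the 12 others from 7.

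Stretches upstream of 4 members are shown to let the reader see these motifs in an enzyme with the SREBP element, an enzyme with several CCAAT boxes, the regulator Insig1 and the efflux gene Abca1, which went the opposite way. They run 5′ to 3′ on the gene's strand and end before both the RefSeq start and the GENCODE gene start. Capitals mark the SREBP element, CCAAT boxes (ATTGG on the other strand) and E-boxes. Hmgcs1 is chr13:119690101-119690350 on the plus strand, Mvk chr5:114444019-114444268 plus, Insig1 chr5:28071162-28071362 plus and Abca1 chr4:53159896-53160145 minus.
Hmgcs1: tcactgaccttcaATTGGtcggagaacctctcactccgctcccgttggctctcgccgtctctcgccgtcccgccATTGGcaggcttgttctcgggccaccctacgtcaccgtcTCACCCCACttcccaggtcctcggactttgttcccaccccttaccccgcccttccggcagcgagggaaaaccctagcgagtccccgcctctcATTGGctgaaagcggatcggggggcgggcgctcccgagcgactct
Mvk: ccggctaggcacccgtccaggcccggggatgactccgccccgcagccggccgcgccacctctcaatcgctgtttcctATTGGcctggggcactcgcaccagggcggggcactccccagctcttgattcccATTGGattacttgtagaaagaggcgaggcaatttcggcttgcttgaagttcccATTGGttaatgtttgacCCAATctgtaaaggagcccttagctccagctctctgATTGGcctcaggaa
Insig1: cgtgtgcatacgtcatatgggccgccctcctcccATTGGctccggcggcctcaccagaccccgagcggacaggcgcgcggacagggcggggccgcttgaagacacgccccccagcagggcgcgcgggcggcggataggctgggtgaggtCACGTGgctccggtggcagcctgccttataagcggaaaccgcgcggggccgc
Abca1: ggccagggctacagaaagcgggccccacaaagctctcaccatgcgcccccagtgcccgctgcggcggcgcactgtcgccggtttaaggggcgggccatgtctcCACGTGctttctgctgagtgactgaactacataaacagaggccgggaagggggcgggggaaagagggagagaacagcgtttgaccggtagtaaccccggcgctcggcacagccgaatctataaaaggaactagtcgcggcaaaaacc

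The Hmgcs1 stretch held 3 CCAAT boxes beside its SREBP element, the Mvk stretch 5 CCAAT boxes, and the Insig1 stretch 1 CCAAT box and 1 E-box. The Abca1 stretch held 1 E-box and no CCAAT box. These matches describe letters in the windows and were not tested as binding sites. Hmgcs1 and Insig1 were 11.6-fold and 4.11-fold higher in effector memory than in naive, Mvk 5.23-fold higher and Abca1 16.3-fold lower.

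Some members share sequence or exons with other genes, and how the counting treated such reads is not given in the sources used here. Acat2 matches Acat3 over 1477 bases at 97.7% identity, with 13, 9 and 21 counts for Acat3 in the 3 libraries. It also shares 445 bases at 98.7% identity with transcripts of Tcp1, which had 5255, 7229 and 16838 counts and was thus highest in effector memory as well. Tm7sf2 shares 12.1% of its exon bases with Vps51 on the same strand. Idi1, Fdft1 and Ggps1 match gene models without a row in the table, Gm13502, Gm6781 and Gm5630, at 100%, 97.4% and 97.2% identity. The counts of these members are therefore uncertain. Exons of Fdft1 overlap Ctsb on the opposite strand over 18.3% of their bases, and Ctsb had 3228, 6765 and 6903 counts. Whether the counting used strand is not given, so reads of that overlap cannot be assigned.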

How the data were processed

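RNA-seq of 3 libraries was analysed from 1 deposited table of read counts per gene symbol, whose columns TN, TCM and TEM were read by abbreviation. Per the submitters' processing notes, featureCounts 1.5.0-p3, HISAT2 2.0.5, CASAVA and the mm10 build were used upstream. Counts as deposited by the authors were scaled to CPM with trimmed mean (TMM) factors (edgeR 4.0.16, R 4.3.3) of 1.04, 0.999 and 0.967. Ratios carry exact (Clopper-Pearson) 95% counting intervals. A gene at 0 enters a ratio at 3 counts and is given as a bound. The calling code was tested on simulated data. Lengths, positions and overlaps come from GENCODE M21 (GRCm38), with 1 matched gene for 98.5% of names; similar genes were sought with blastn at 90% identity over 400 bases or more. All members were named, and of each other list up to 3 called genes per comparison with the most extreme interval bound nearest 1, beside Mki67 and Top2a; genes named for context that fall outside this (in the LXR, SREBP cleavage and oxysterol lists, the course of Soat2 and Lrp8, and marker genes) were chosen after their values were seen. Not all genes that the rule takes are reported here. The members and lists were chosen with earlier results of these data known. Alternatives were total counts, upper quartile factors, size factors of DESeq2 1.42.0, other CPM minimums and ratios, log2(CPM + 1), and, added after seeing the data, read pairs counted once. Scripts ran in Python 3.11.15 (SciPy 1.17.1, pandas 2.3.3, NumPy 2.4.6).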

Additional observations from a re-analysis of the deposited data

How the results depend on the processing

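In effector memory against naive and against central memory, the 27 members kept their calls under total counts, DESeq2 size factors and upper quartile factors, and the counts of higher enzymes stayed within 1.5 times at minimums of 1 and 20 CPM and at ratios of 1.5 and 3. In central memory against naive, members called higher went from 4 to 2 and enzymes from 3 to 1 under each of these 3 scalings, since Acat2 and Cyp51 fell below 2-fold (log2 ratios of 0.91 to 0.99 and 0.89 to 0.97); Sqle and Stard4 stayed called. At a ratio of 1.5, 12 members and 9 enzymes were higher there (22.0% of all genes), and at a ratio of 3, 1 member was higher, the enzyme Sqle, and 1 lower, Abca1 (6.53% and 2.71% of all genes). In effector memory against central memory, 1 member, Abcg1, was lower at a ratio of 1.5 (25.3% of all genes), against 0 at 2. Uncalled values near 0 changed sign under a scaling: there Scap and Ggps1 under total counts (-0.01 and -0.03), and Nsdhl in central memory against naive under DESeq2 and upper quartile factors (-0.03 and -0.05). The enzyme median of 1.87 in effector memory against central memory became 1.72 on the log2(CPM + 1) scale, which compresses low values by construction. DESeq2 and upper quartile factors shifted the median of all genes by -0.11 and -0.12 in central memory against naive, and total counts and upper quartile factors each by -0.10 in effector memory against naive. No paired analysis was possible because each group has 1 library, and no library could be left out for the same reason. Fdps, at 8 counts in naive, has the least certain ratio.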
